A study of Homo sapiens with 4 samples.

Results

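The 36 genes described here encode subunits of mitochondrial complex I. They were taken by their symbols, and all 36 were among the 18882 gene IDs listed in at least 1 of the 4 RNA-sequencing libraries. The cells were BT-474, an established breast cancer line labelled luminal B-like. Control cells were wild-type BT-474 (replicates 1 and 2), and BT-474 NRP-1 cells carried a plasmid for overexpression of NRP-1 (replicates 2 and 3, as numbered in the titles), a co-receptor for semaphorins and VEGF. Both groups grew in RPMI-1640 with 10% FBS. The NRP-1 cells were stable transfectants selected with Geneticin, whereas the controls were untransfected, so effects of NRP-1, of the plasmid and of the selection cannot be told apart. The sources do not say whether the NRP-1 cells came from 1 colony or several, or that libraries of a group came from separate cultures, and p-values therefore measured only the spread between these libraries.

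Complex I (NADH:ubiquinone oxidoreductase) takes electrons from NADH, passes them through a flavin and a chain of iron-sulfur clusters to ubiquinone, and pumps protons across the inner mitochondrial membrane. Its core subunits carry out catalysis. The accessory subunits surround this core and are needed for its assembly and stability, with many NDUFA proteins near the matrix arm or its junction with the membrane, and the NDUFB and NDUFC proteins in the membrane arm. Some subunits are encoded by mitochondrial DNA, and the genes for the others, all those described here among them, are in the nucleus and must be expressed in balance for the enzyme to assemble.

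Total expected counts, the reads assigned to genes, were 8243595 and 8308030 in control replicates 1 and 2, and 8395510 and 8448926 in NRP-1 replicates 2 and 3. NRP1 itself matched the labels, at 7 and 8 reads in controls against 103 and 62 in NRP-1 cells (log2 fold change 3.38, standard error 0.42, adjusted p = 0.044 by edgeR with the Benjamini-Hochberg method). The biological coefficient of variation was 0.225 between the NRP-1 libraries and 0.064 between the controls. All 9 luminal epithelial markers were detected and none was called changed by edgeR (lowest adjusted p 0.126). An unadjusted p under 0.05 was found for 3 of them (33.3%), beside 22.9% of all genes tested. Their log2 fold changes ran from -0.31 to 1.34, with 7 above 0 and 2 below. Of 10 markers of stromal, blood and endothelial cells, 8 were listed and 5 had enough reads to test. Log2 fold changes of these 5 ran from -1.67 to 1.66, with 2 above 0 and 3 below. By edgeR, 1 was higher and 2 were lower at an unadjusted p under 0.05. The only called gene was CD68, a lysosomal protein known as a macrophage marker. It was lower (320 and 281 reads in controls, 107 and 89 in NRP-1 cells, adjusted p = 0.0423 by edgeR). RNA of whole cultures was measured, so fewer cells expressing a gene and less of its RNA per cell cannot be told apart.

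No complex I subunit gene was called changed between BT-474 NRP-1 and control cells. All 36 passed the filter on low counts, with 68 to 2465 reads per library, and 0 of 36 had an adjusted p under 0.05 in edgeR. Among all 14298 genes tested, 1.09% did, 0.413% being higher and 0.678% lower. The lowest adjusted p of a subunit gene was 0.114, for NDUFS1. Without adjustment, 4 of the 36 (11.1%) had a p under 0.05, NDUFS1, NDUFS5, NDUFA9 and NDUFC1, all with higher means in NRP-1 cells, against 22.9% of all genes tested. DESeq2 called 0 of the 36, beside 896 of all 18882 gene IDs listed, those with low counts included. Limma on log2(FPKM + 1) called 0, beside 7 of 14574 genes. For any gene alone, the smallest p of an exact permutation test (two-sided) is 0.33 with this number of libraries, and the adjusted p-values were therefore taken from the model across all genes.

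The fitted differences were small in either direction. Log2 fold changes of the 36 genes ran from -0.39 (NDUFA7) to 0.47 (NDUFB10), with standard errors of 0.11 to 0.22. Their median was 0.08, beside 0.02 over all genes tested, and 26 of the 36 (72.2%) had a fold change above 0, beside 51.8% of all genes. Both NRP-1 libraries lay above both controls in 12 genes (33.3%, background 27.9%) and below both in 4 genes (11.1%, background 28.3%), while the groups overlapped in the other 20.

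Summed over the 36 genes, the level was 2523 and 2447 CPM (reads scaled to library size, after TMM) in the controls, and 2462 and 2778 CPM in NRP-1 replicates 2 and 3. This gave 2485 ± 53.6 CPM in control cells and 2620 ± 223.3 CPM in NRP-1 cells (SD, n = 2 each). The sum in NRP-1 replicate 3 was 11.8% above the control mean, whereas replicate 2 lay within the range of the controls. The groups therefore overlapped in the summed level.

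The 36 genes were expressed well above the typical gene, and their levels differed widely among themselves. On the scale of FPKM, which divides by transcript length, their median was 57.1, against 9.21 over all genes tested. NDUFB9, an accessory subunit of the membrane arm, was the highest, at 286.2 and 274.2 FPKM in controls and 298.6 and 307 FPKM in NRP-1 cells. NDUFS8, which holds iron-sulfur clusters near the ubiquinone site, had 237 and 208.5 FPKM in controls and 168.2 and 236.8 FPKM in NRP-1 cells. NDUFV1, which binds NADH and the flavin, had 179.5 and 177.5 FPKM in controls and 181.3 and 173.9 FPKM in NRP-1 cells. Every library of NDUFB9 lay above every library of the other subunit genes, but the libraries of NDUFS8 and NDUFV1 overlapped. NDUFV1 (mean 178 FPKM) was close to NDUFS6 (mean 170.7 FPKM) and NDUFV2 (mean 170.4 FPKM), and its libraries overlapped with theirs. NDUFB9, NDUFS8 and NDUFV1 held 22.5% of the summed FPKM.

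At the other end, NDUFB6, a membrane-arm subunit, had 11.3 and 9.62 FPKM in controls and 14.4 and 14.3 FPKM in NRP-1 cells, below all other subunit genes in each library. NDUFA10, which resembles nucleoside kinases, had 25.8 and 24.1 FPKM in controls and 22.8 and 21.7 FPKM in NRP-1 cells. NDUFS4, an accessory subunit of the NADH-oxidizing end, had 23.7 and 23.7 FPKM in controls and 23.5 and 25.7 FPKM in NRP-1 cells. The levels of NDUFA10 and NDUFS4 overlapped. NDUFS1, next by mean level, had 20.6 and 21 FPKM in controls, below both of these genes there, and 28.2 and 28.8 FPKM in NRP-1 cells, above both. Mean levels spanned 23.5-fold from NDUFB6 to NDUFB9.

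**Figure D1:**
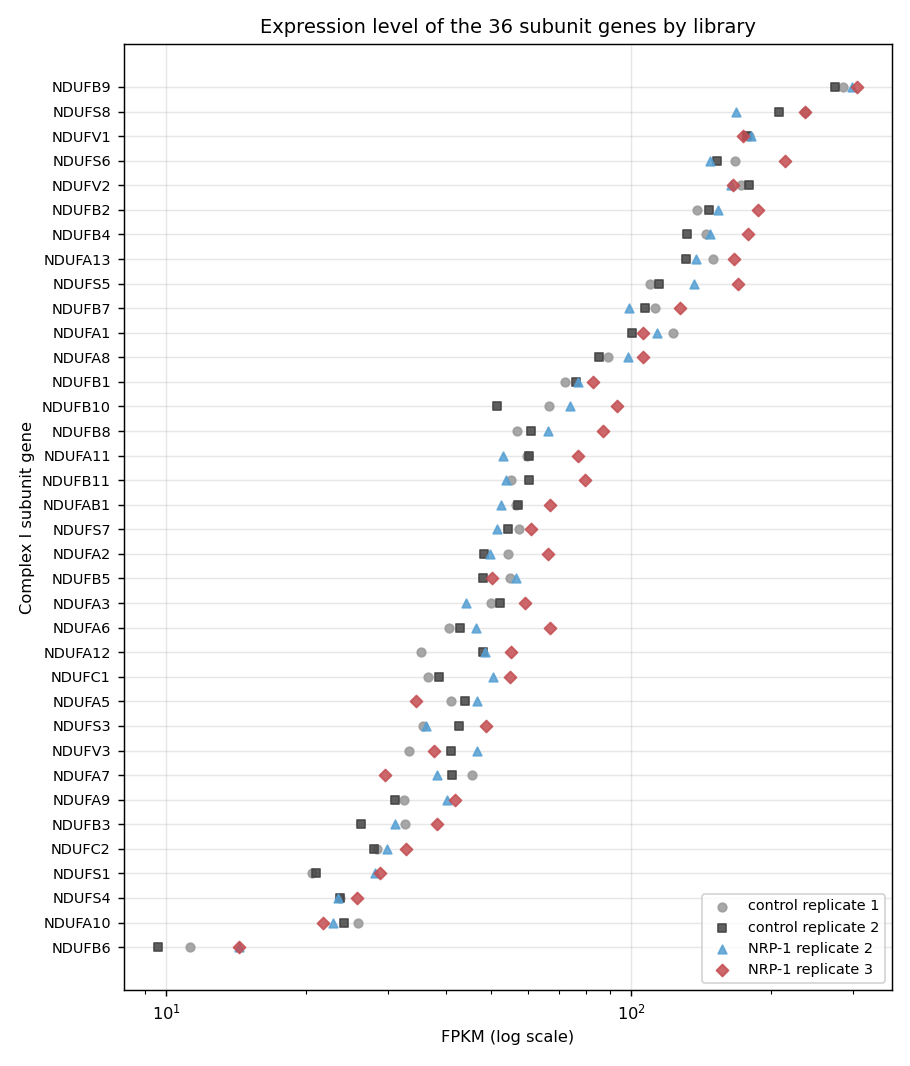
FPKM (log axis) of each of the 36 complex I subunit genes in the 4 libraries, 1 point per library, with genes ordered by mean level. The order from NDUFB9 (mean 291.5 FPKM) to NDUFB6 (mean 12.39 FPKM) spans much more than the distance between libraries within a gene.

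Among the 6 core subunits, NDUFS1 was set apart from the other five. NDUFS1 carries iron-sulfur clusters that lead electrons away from the flavin. It had 72.7 and 74.2 CPM in the controls and 97.1 and 99.8 CPM in the NRP-1 libraries. The groups did not overlap, and the libraries within each group were close together (73.5 ± 1.09 against 98.5 ± 1.9 CPM, SD, n = 2 each). The fold change of NDUFS1 was 0.42 on the log2 scale (standard error 0.12, adjusted p = 0.114 by edgeR), a 1.34-fold difference that did not pass the test.

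The other five core genes had log2 fold changes between -0.17 and 0.08. NDUFV1 had 295.4 and 290.8 CPM in controls and 289.9 and 279.4 CPM in NRP-1 cells. NDUFV2, its partner at the NADH-oxidizing end, had 160.6 and 165.8 CPM in controls and 148.5 and 150.2 CPM in NRP-1 cells. Both NRP-1 libraries were below both controls in these 2 genes, with log2 fold changes of -0.04 (standard error 0.11) for NDUFV1 and -0.13 (standard error 0.11, adjusted p = 0.54 by edgeR) for NDUFV2.

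In the genes of the ubiquinone-binding module the NRP-1 libraries differed from each other. NDUFS8 had 192.9 and 168.9 CPM in controls, and 132.9 and 188.1 CPM in NRP-1 replicates 2 and 3 (log2 fold change -0.17, standard error 0.19, adjusted p = 0.634 by edgeR). NDUFS7, which holds the last iron-sulfur cluster before ubiquinone, had 45.2 and 42.6 CPM in controls and 39.4 and 46.9 CPM in NRP-1 cells. NDUFS3, a scaffold of that module, had 34.5 and 41 CPM in controls and 33.9 and 46 CPM in NRP-1 cells. In all 3 genes, replicate 2 was below both controls, and replicate 3 was above both in NDUFS3 and NDUFS7 but between them in NDUFS8. The 7 subunits encoded by mitochondrial DNA were not among the gene IDs listed in any library, so they could not be analysed here.

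The highest fold changes of the accessory genes were also higher in both NRP-1 libraries. NDUFB10, on the intermembrane-space side of the membrane arm, had 48.5 and 37.2 CPM in controls and 52.3 and 66.4 CPM in NRP-1 cells (log2 fold change 0.47, standard error 0.20, adjusted p = 0.227 by edgeR). The controls of NDUFB10 differed from each other by 0.38 on the log2 scale, more than the 0.28 between NRP-1 replicate 2 and the control mean. NDUFC1, a small membrane-arm protein, had 27 and 28 CPM in controls and 35.8 and 38.4 CPM in NRP-1 cells (log2 fold change 0.43, standard error 0.15, adjusted p = 0.166 by edgeR). Its NRP-1 libraries were close to each other, as were those of NDUFS1.

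NDUFS5, an accessory subunit with paired cysteines, had 62 and 64.4 CPM in controls and 74.7 and 93.5 CPM in NRP-1 cells (log2 fold change 0.41, standard error 0.15, adjusted p = 0.185 by edgeR). NDUFA6, which anchors the acyl carrier protein NDUFAB1 to the matrix arm, had 48.9 and 51.4 CPM in controls and 54.1 and 78.8 CPM in NRP-1 cells (log2 fold change 0.41, standard error 0.20, adjusted p = 0.291 by edgeR). In both genes the larger part of the difference came from replicate 3. The other 8 genes with both NRP-1 libraries above both controls were NDUFB6, NDUFB8, NDUFA9, NDUFB2, NDUFA8, NDUFC2, NDUFB9 and NDUFS1, with log2 fold changes of 0.08 to 0.42.

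Lower values were seen in fewer genes. NDUFA7, an accessory subunit of the matrix arm, had 25.8 and 23.2 CPM in controls and 21.1 and 16.3 CPM in NRP-1 cells (log2 fold change -0.39, standard error 0.20, adjusted p = 0.305 by edgeR). NDUFA10 had 130.3 and 121.3 CPM in controls and 111.8 and 107 CPM in NRP-1 cells (log2 fold change -0.20, standard error 0.12, adjusted p = 0.363 by edgeR). With NDUFV1 and NDUFV2 these are the 4 genes below both controls in both NRP-1 libraries. NDUFA5, a subunit of the matrix arm, had 64.1 and 68.3 CPM in controls, and 70.7 and 52.6 CPM in NRP-1 replicates 2 and 3 (log2 fold change -0.10, standard error 0.17, adjusted p = 0.769 by edgeR). Its NRP-1 libraries lay on opposite sides of the controls.

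**Figure D2:**
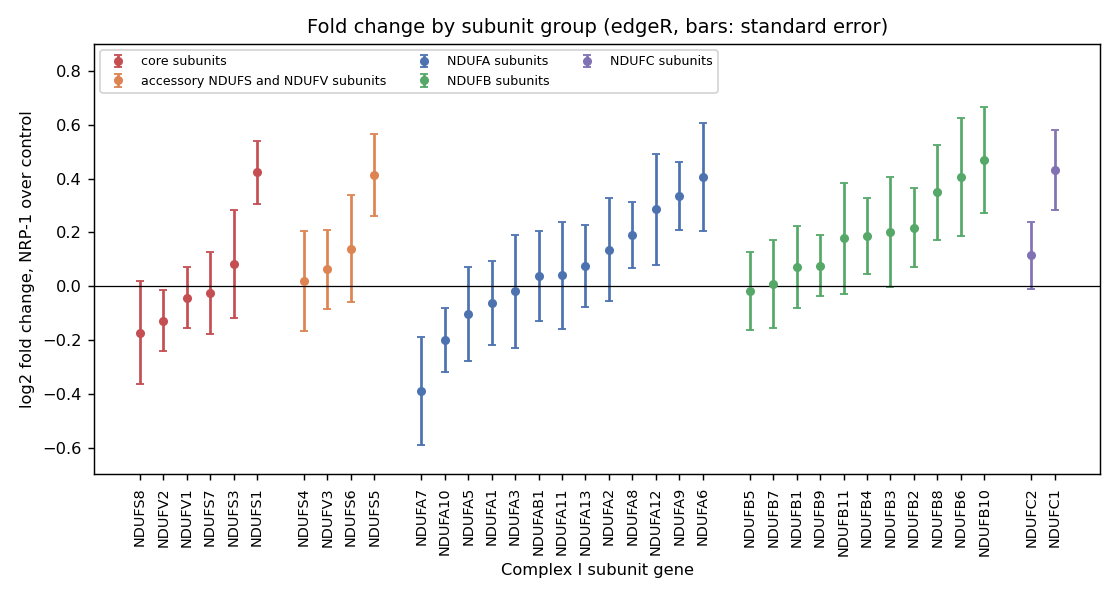
Log2 fold change (NRP-1 over control, edgeR) of each of the 36 genes, grouped by subunit class, with bars of 1 standard error. Values run from -0.39 (NDUFA7) to 0.47 (NDUFB10), and the NDUFB genes lie above 0 in 10 of 11 cases, none of them past an adjusted p of 0.05.

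By class, the median log2 fold change was -0.03 in the 6 core genes, 0.10 in the 4 accessory NDUFS and NDUFV genes, 0.04 in the 13 NDUFA and NDUFAB1 genes, 0.19 in the 11 NDUFB genes and 0.27 in the 2 NDUFC genes. Values were above 0 in 2 core, 4 accessory NDUFS and NDUFV, 8 NDUFA and NDUFAB1, 10 NDUFB and both NDUFC genes. No class held a called gene, and the difference between classes was not tested. The level of a gene was only weakly related to its fold change over the 36 genes (Spearman's rho -0.121 with mean FPKM, a description across genes, which share libraries and are not independent replicates).

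The NRP-1 libraries differed from each other in most of these genes. NRP-1 replicate 3 was above both controls in 27 of 36 genes (75.0%), against 43.5% of all genes tested, and below both in 6 (16.7%, background 42.8%). NRP-1 replicate 2 was above both controls in 13 genes (36.1%, background 41.7%) and below both in 15 (41.7%, background 42.1%). The median log2 ratio to the control mean was 0.23 in replicate 3 and 0.03 in replicate 2, beside -0.00 and -0.01 over all genes tested. Replicate 3 was above replicate 2 in 29 of the 36 (80.6%), against 49.0% of all genes.

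The largest differences between the NRP-1 libraries were in NDUFB11, NDUFS6 and NDUFA6. NDUFB11, an X-linked membrane-arm subunit, had 61.5 and 67 CPM in controls, and 58.4 and 86.9 CPM in NRP-1 replicates 2 and 3. NDUFS6, a zinc-binding subunit of the matrix arm that is added late in assembly, had 89.7 and 81.6 CPM in controls, and 76.8 and 111.8 CPM in NRP-1 replicates 2 and 3. In both genes replicate 2 was below both controls and replicate 3 above both, and the libraries stood 0.57 (NDUFB11), 0.54 (NDUFS6) and 0.54 (NDUFA6) apart on the log2 scale. The order was the opposite in NDUFA5 (-0.42) and NDUFA7 (-0.36).

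The scatter of the 36 log2 ratios was 0.25 (SD) between the NRP-1 libraries and 0.162 between the controls, where counting error alone would give 0.104 and 0.111. Replicate 3 was above replicate 2 in 24 of the 26 subunit genes with a mean transcript under 1000 bases and in 5 of the 10 longer ones. Over all genes tested under 1000 bases it was above in 511 of 820, with a median difference of 0.13 on the log2 scale, and over longer genes in 6494 of 13478, with a median of -0.01. The median log2 ratio of replicate 3 to the control mean was 0.26 in the shorter subunit genes, with 22 of 26 above both controls. In the longer ones it was 0.10, with 5 of 10 above both. Of all genes tested, 345 of 820 shorter and 5871 of 13478 longer ones were above both. By rank over the 36 genes, length and this ratio were nearly unrelated (Spearman's rho -0.0906, a description across genes of the same libraries). The part of transcript length in the higher values of replicate 3 was not tested.

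**Figure D3:**
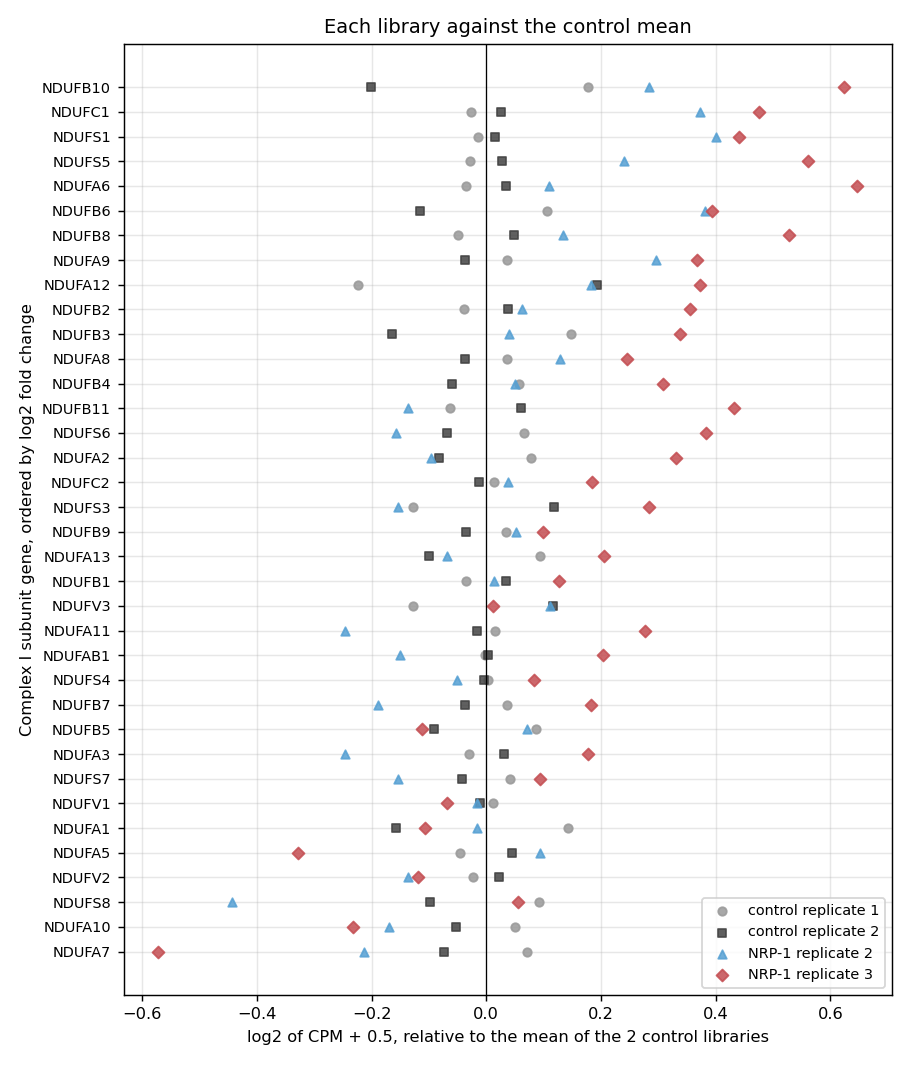
Log2 of CPM + 0.5 of each library relative to the mean of both controls (x axis), 1 row per gene, ordered by fold change. NRP-1 replicate 3 lies to the right of both controls in 27 of 36 genes and NRP-1 replicate 2 in 13, while NDUFS1, NDUFC1, NDUFB6 and NDUFA9 have both NRP-1 libraries close together on the right.

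The calls changed when only 1 NRP-1 library was used. With only replicate 3 in the NRP-1 group, 11 subunit genes (30.6%) were called higher and 2 (5.56%) lower by edgeR, where 18.5% of all genes were called higher and 18.3% lower. With only replicate 2, 1 gene (2.78%) was called higher and 1 (2.78%) lower, where 13.5% and 14.7% of all genes were. In such a fit the lone NRP-1 library is assumed to vary like the controls, and the spread between NRP-1 libraries does not enter. The 11 genes higher with replicate 3 alone were NDUFA6, NDUFA9, NDUFB2, NDUFB4, NDUFB8, NDUFB10, NDUFB11, NDUFC1, NDUFS1, NDUFS5 and NDUFS6, and the 2 lower were NDUFA5 and NDUFA7. With replicate 2 alone, NDUFS1 was higher (log2 fold change 0.40, adjusted p = 0.00175 by edgeR) and NDUFS8 lower (-0.44, adjusted p = 0.000139 by edgeR). Both fits used the same controls, so they are not independent of each other.

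Promoter sequences from RefSeq (GRCh38.p14) were found for 32 of the 36 genes, in a window from 250 bases before to 50 bases after the transcript start. They were searched on both strands for short core letters of factors known for control of respiratory genes. The NRF1 core GCATGCGC was in 5 of the 32 (15.6%), against 5.44% of 11225 tested genes with a promoter and 3.27% of all 27305 promoters. The ETS core CCGGAAG, the kind of site bound by GABP, was in 5 (15.6%, against 18.7% and 10.7%). The SP1 core GGGCGG was in 20 (62.5%, against 68.4% and 44.6%). The YY1 core ATGGCGG was in 13 (40.6%, against 10% and 5.72%). In 10 of these 13 it lay only at or after the transcript start. On the gene's own strand, ATGGCGG also reads as a start codon followed by an alanine codon. The strand of these matches was not tallied, so binding site and coding sequence cannot be told apart here. A match describes letters, not binding.

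The 150 bases before the start are shown, 5′ to 3′ on the gene's strand, for NDUFS1 and NDUFB10, the genes with the lowest adjusted p and the highest fold change. They are shown too for NDUFS6, with one of the largest differences between the NRP-1 libraries, and for NDUFA13 as an example with YY1 and ETS letters before the start. Capitals mark NRF1 core letters in NDUFS6, on the reverse strand, and YY1 and ETS core letters in NDUFA13. The more common SP1 letters are not marked. The printed bases of NDUFS1 and NDUFB10 hold none of the NRF1, YY1 and ETS letters, but the whole searched window of NDUFS1 does hold ETS and YY1 letters. The printed stretches are chr2:206159445-206159594 (NDUFS1, minus strand), chr16:1959388-1959537 (NDUFB10, plus strand), chr5:1801257-1801406 (NDUFS6, plus strand) and chr19:19516075-19516224 (NDUFA13, plus strand).
NDUFS1: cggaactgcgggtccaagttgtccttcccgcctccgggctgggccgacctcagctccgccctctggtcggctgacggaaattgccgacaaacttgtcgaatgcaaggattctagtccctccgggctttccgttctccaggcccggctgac
NDUFB10: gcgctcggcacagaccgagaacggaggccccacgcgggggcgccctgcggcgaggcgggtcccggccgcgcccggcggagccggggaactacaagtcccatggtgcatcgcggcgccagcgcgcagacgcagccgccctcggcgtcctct
NDUFS6: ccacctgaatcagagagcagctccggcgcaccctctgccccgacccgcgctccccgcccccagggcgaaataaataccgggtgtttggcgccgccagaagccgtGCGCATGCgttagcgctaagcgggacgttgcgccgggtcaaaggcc
NDUFA13: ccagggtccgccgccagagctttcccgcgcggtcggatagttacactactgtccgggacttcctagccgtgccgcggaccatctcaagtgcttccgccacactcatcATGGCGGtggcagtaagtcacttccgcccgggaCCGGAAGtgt

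Genes that act with complex I were compared in the same fit. Of all 14298 genes tested, 1.09% were called and 22.9% had an unadjusted p under 0.05 by edgeR. At that share of calls, a list this short would often hold 0 called genes. Of 19 assembly factors, which help build the complex without remaining in it, 0 were called by edgeR (2 had an unadjusted p under 0.05), with a median log2 fold change of 0.02. The highest was NDUFAF8 (0.79, standard error 0.36, adjusted p = 0.256 by edgeR) and the lowest NDUFAF3 (-0.44, standard error 0.29, adjusted p = 0.413 by edgeR). NRP-1 replicate 3 was above replicate 2 in 16 of these 19 genes, beside 49.0% of all genes tested.

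No gene was called by edgeR in the other respiratory complexes, beside 1.09% of all genes tested. An unadjusted p under 0.05 was found for 0 genes of complex II and 2 of complex III (22.2%). It was found for 1 gene of complex IV (8.33%) and 1 of ATP synthase (5.56%), beside 22.9% of all genes tested. The median log2 fold change was 0.07 in 4 genes of complex II (succinate dehydrogenase), 0.09 in 9 of complex III, -0.01 in 12 of complex IV (cytochrome c oxidase) and 0.16 in 18 of ATP synthase. In complex II, SDHA was highest (0.25) and SDHD lowest (-0.18). In complex III, UQCR10 was highest (0.28) and UQCRB lowest (-0.37, adjusted p = 0.159 by edgeR). In complex IV, COX6B1 was highest (0.27) and COX7A2L lowest (-0.53, adjusted p = 0.169 by edgeR). In ATP synthase, ATP5MF was highest (0.43, adjusted p = 0.122 by edgeR) and ATP5MC2 lowest (-0.21). There, 17 of 18 values (94.4%) were above 0, beside 51.8% of all genes tested. The median ratio of NRP-1 replicate 3 to the control mean was 0.11, 0.23, 0.02 and 0.28 in the 4 lists, above that of replicate 2 (-0.04, -0.05, -0.03 and 0.06) in each.

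Among 13 regulators of mitochondrial biogenesis 0 were called by edgeR, and 3 (23.1%) had an unadjusted p under 0.05. Of all genes tested, 1.09% were called and 22.9% had an unadjusted p under 0.05. MYC had the lowest fold change, with 1113 and 1116 reads in controls and 231 and 553 reads in NRP-1 cells (log2 fold change -1.57, standard error 0.38, adjusted p = 0.0893 by edgeR). The highest was GABPB1, a subunit of the GABP factor, with 166 and 164 reads in controls and 224 and 233 reads in NRP-1 cells (0.41, adjusted p = 0.207 by edgeR). Cytosolic ribosomal protein genes, another set of abundant and mostly short transcripts, had a median of -0.57, with 5 of 78 called lower, 0 called higher and 77 of 78 below 0. Over all genes tested, 0.678% were called lower and 0.413% higher, and 6897 of 14298 were below 0. The controls also differed in the ribosomal list. There, control replicate 2 was above control replicate 1 in 2 of 78 genes (median log2 ratio -0.21), beside 50.3% of all genes tested. The median ratio of the ribosomal genes to the control mean was -0.65 in NRP-1 replicate 2 and -0.46 in replicate 3. NRP-1 replicate 3 was above replicate 2 in 74 of 78, beside 49.0% of all genes tested.

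**Figure D4:**
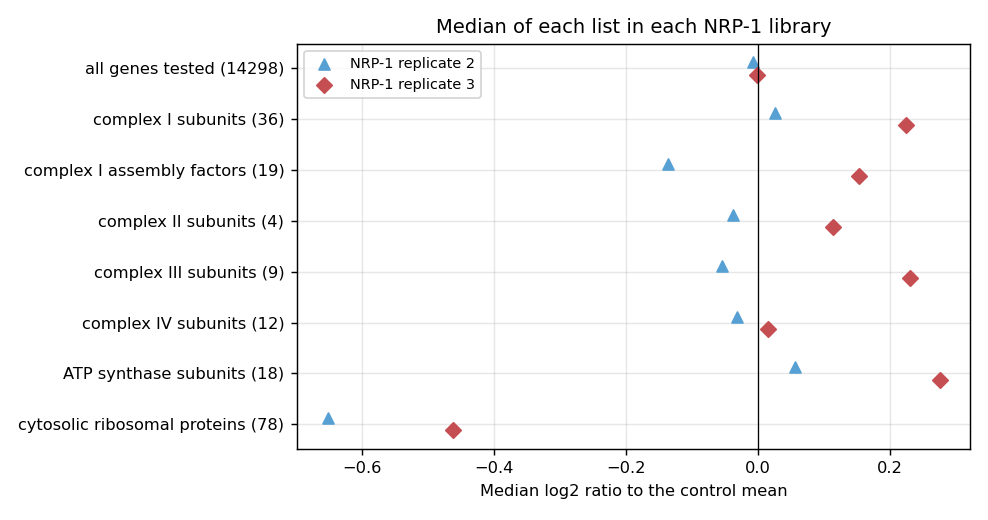
Median log2 ratio of CPM + 0.5 to the control mean (x axis) for each NRP-1 library and gene list, with the number of genes tested in parentheses. Complex I subunits lie at 0.03 in replicate 2 and 0.23 in replicate 3, and replicate 3 lies to the right of replicate 2 in each of the lists plotted.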

How the data were processed

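The 4 libraries were made from poly(A)-selected RNA of BT-474 cells. The authors deposited an expected count per gene, not normalized, and an FPKM value, normalized for transcript length and mapped reads. Their processing notes name HISAT2 2.0.1, Bowtie2 2.2.5, RSEM and the builds GRCh38 and hg19 without roles, and the strand setting of counting is not given in the sources used here. A further deposited table, which holds the authors' group means, log2 ratio and probability, was not used. Genes absent from a library's table were set to 0 there, and 99.4% of gene IDs were named from RefSeq genes (GRCh38.p14).

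Expected counts were rounded and fitted in R 4.3.3 by the quasi-likelihood test of edgeR 4.0.16, after filterByExpr and TMM, with group as the only term. Standard errors were the absolute log2 fold change divided by the square root of F. P-values were adjusted by Benjamini-Hochberg over all 14298 genes, and the threshold was 0.05. The alternatives were DESeq2 1.42.0, other scalings, no filter, the omission of each library, and limma 3.58.1 on log2 FPKM with a pseudocount of 1 or 0.1 (mean FPKM 0.5 or more). The fit was tested on simulated data.

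The members and gene lists were chosen with earlier results of these data known. Values in every library are given for the core subunits, the 5 highest and 5 lowest fold changes, the 3 highest and 3 lowest mean FPKM and the 3 largest differences between NRP-1 libraries. Of the lists of assembly factors, other respiratory complexes and biogenesis regulators, the highest and lowest fold change are named. Single ribosomal and luminal genes are not named, and of the other markers only the called gene is. Reads were split between genes in 4 members (NDUFA7, NDUFA11, NDUFC2 and NDUFV3), whose counts are estimates. One further result is not reported here.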

Additional observations from a re-analysis of the deposited data

How the results depend on the processing

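The count of called subunit genes was also 0 with DESeq2 (lowest adjusted p 0.223, 4.75% of all listed gene IDs called, low counts included). It was 0 too with edgeR on library sizes without TMM (0.0977, 1.08% of genes tested) and on DESeq2 size factors (0.114, 1.14%). It was 0 as well in settings that called almost no gene at all and so say little: limma on log2(FPKM + 1) and log2(FPKM + 0.1), with 7 and 3 of 14574 genes called, and no filter and the omission of control replicate 1 or 2, with 0 genes called. Leaving out 1 library at a time gave 0 to 13 calls, and for the other oxidative phosphorylation genes, whose alternatives were added after the data had been seen, 0 to 23. The 13 subunit calls came without NRP-1 replicate 2, and 2 calls were made without NRP-1 replicate 3, in fits where 36.8% and 28.2% of all genes were called. The median log2 fold change of the 36 genes, 0.08, moved to 0.22 when NRP-1 replicate 2 was omitted and to 0.03 when replicate 3 was, and the log2 ratio of their summed CPM, 0.08, moved to 0.15 and -0.01. The log2 fold change of NRP1 kept its direction but not its call with limma on log2(FPKM + 1) (1.28), limma on log2(FPKM + 0.1) (2.87) and no filter (3.38), and ranged from 2.96 to 3.70 as libraries were omitted, with the call lost without control replicate 1 (3.30) or 2 (3.47).

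With another tool, scaling or filter, 209 values of single subunit genes kept direction and side of the threshold and 8 turned in sign, all near 0: NDUFA3 (0.0003 with limma on log2(FPKM + 1), 0.014 without TMM), NDUFB5 (0.054 and 0.055 with the limma settings, 0.016 without TMM) and NDUFS7 (0.0051 with either limma setting, 0.0080 without TMM). The omission of a library turned the sign in 16 genes, with ranges of log2 fold change as follows: NDUFA1 (-0.20 to 0.096), NDUFA2 (-0.096 to 0.33), NDUFA3 (-0.25 to 0.17), NDUFA5 (-0.34 to 0.096), NDUFA11 (-0.25 to 0.27), NDUFA13 (-0.067 to 0.20), NDUFAB1 (-0.15 to 0.20), NDUFB5 (-0.12 to 0.073), NDUFB7 (-0.19 to 0.17), NDUFB11 (-0.14 to 0.43), NDUFS3 (-0.16 to 0.28), NDUFS4 (-0.051 to 0.076), NDUFS6 (-0.16 to 0.38), NDUFS7 (-0.15 to 0.085), NDUFS8 (-0.44 to 0.047) and NDUFV3 (-0.057 to 0.19). The cause was not tested. Summing NDUFC2 with the readthrough gene NDUFC2-KCTD14, which had at most 3.93 reads, left its fold change at 0.11. No paired analysis was possible because the groups share only replicate number 2. Only 2 libraries per group limit the tests, and counting error was below the observed scatter in both groups.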

Other observations

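The neighbouring transcripts given here had fewer reads in each library than the subunit gene they are named after. NDUFB2-AS1, an antisense gene, had 26 and 36.7 reads in controls and 41.7 and 38.2 in NRP-1 cells. NDUFA6-DT, a divergent transcript, had 88.4 and 115.5 reads in controls and 101 and 78 in NRP-1 cells, lowest in replicate 3, where NDUFA6 itself was highest with 671 reads. Without a stated strand setting, reads of such partners cannot be told apart where they overlap. The estimated mean transcript length of NDUFV3, which has a long and a short isoform, was 1414 and 1366 bases in controls and 1234 and 1407 bases in NRP-1 replicates 2 and 3.

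Single genes near complex I, chosen after their values were seen, moved more than the subunit genes did. NDUFAF6, an assembly factor, had 190 and 194 reads in controls and 284 and 323 in NRP-1 cells (log2 fold change 0.60, standard error 0.16, adjusted p = 0.106 by edgeR). PPARGC1A, a coactivator of mitochondrial biogenesis, had 151 and 121 reads in controls and 63 and 39 in NRP-1 cells (log2 fold change -1.47, standard error 0.30, adjusted p = 0.0728 by edgeR). The groups did not overlap in either gene, and neither passed the test.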
